A study of Mus musculus with 203 samples.

Results

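The chitinase-like genes Chil3, Chil4 and Chil1 and the resistin-like genes Retnla and Retnlg of the mouse, all coding for secreted immune proteins, were followed in macrophages stimulated with IL4. They were found by gene symbol in the study's RNA-seq tables, where they made up 5 of the 25094 genes listed for RAW264.7 cells and 5 of the 16478 genes listed for bone marrow-derived macrophages (BMDMs). In RAW cells all 5 stayed below the detection limit used here, a log2 value of 1, in all 16 libraries, with or without IL4 and with or without depletion of KDM1A. Chil3, Retnla and Retnlg were listed at exactly 0 throughout, and Chil4 and Chil1 lay on the lowest level of any gene not listed at 0. Among 19 other genes used as markers of the IL4 response, 9 could be tested in the same libraries. Of these, 8 rose with IL4 in control cells and 7 in KDM1A-depleted cells, against 13.1% and 13.6% of all genes tested. The list includes Ptgs1, Mrc1, Mgl2, Clec7a and Flt1, which the study itself reports as IL4 target genes, so these counts are not independent support.

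Chitinase-like proteins keep the fold of enzymes that cut chitin, the polymer of fungal walls and arthropod shells, but have lost the cutting activity. Chil3 (also called Ym1) and Chil4 (Ym2) are secreted lectins of rodents, and Chil1 (BRP-39) is the mouse counterpart of human YKL-40. Retnla (RELMα, or FIZZ1) and Retnlg (RELMγ) are small cysteine-rich secreted proteins named after resistin, a product of mouse fat cells. Chil3 and Retnla are classical markers of mouse macrophages activated by IL4 or IL13, which act through the transcription factor STAT6, while Chil3, Chil1 and Retnlg are also known from neutrophils.

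The RAW libraries came from RAW264.7, a macrophage line of BALB/c origin, carrying a lentiviral hairpin against GFP (shGFP, the control) or against the histone demethylase gene Kdm1a (shKDM1A), each without IL4 or after 6 h with IL4 at 20 ng/ml. Each of the 4 groups had 4 libraries, and all 16 carried a hairpin vector and had passed puromycin selection. The shKDM1A cells were 1 stable line with 1 hairpin, and no other hairpin against Kdm1a was analysed here. The BMDMs came from C57BL/6 mice, wild-type (WT) or with Gps2 deleted in macrophages (Gps2 KO), without IL4 or after 6 h with IL4 at 20 ng/ml, in 4 groups and 16 libraries. The BMDM table gives gene positions and the authors' own group comparisons but no value per library, so in BMDMs only the listing of the genes was used.

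On mouse build mm9 the genes formed 2 neighbouring pairs and 1 gene apart. Chil3 (NM_009892) was listed on the minus strand of chromosome 3 from 105950472 to 105970482, with a transcript of 1526 bases. Chil4 (NM_145126) followed on the same strand from 106004409 to 106022397, with 1497 bases, 33926 bases beyond Chil3. Chil1 (NM_007695) lay alone on the plus strand of chromosome 1 from 136078981 to 136086608, with 1677 bases. Retnla (NM_020509) was on the plus strand of chromosome 16 from 48842722 to 48844574, with 535 bases, and Retnlg (NM_181596) stood 28146 bases further on, from 48872721 to 48874611, with 602 bases. Both tables gave the same identifiers, positions and lengths for all 5. The GENCODE models of this build had 11 exons for Chil3 and for Chil4, 10 for Chil1 and 4 for each resistin-like gene.

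The neighbours are close copies of each other, which bears on how sequencing reads can be assigned to them. Over the GENCODE coding sequences, Chil3 (1197 bases) and Chil4 (1209 bases) were identical at 1141 of 1197 aligned bases (95.3%), with the longest identical run reaching 136 bases. Of all 50-base stretches of the Chil3 coding sequence, 20.6% also occurred in Chil4, and of all 100-base stretches 4.92% did. Reads that fall wholly within those stretches cannot be told apart, so part of a value for either gene can be uncertain in source. How such reads were assigned in these libraries was not examined. The GENCODE gene record of Chil3 (named Chi3l3 there), from 105950472 to 106022425, holds a longer transcript model that reaches across Chil4 on the same strand, while the transcript compared here ends at 105970482. Retnla and Retnlg were less alike, with 298 of 354 aligned coding bases identical (84.2%), a longest identical run of 42 bases and no shared 50-base stretch. Chil1 was more distant, at 59.5% identity with Chil3 and 61.5% with Chil4. The stretch of 60 coding bases in which Chil3 and Chil4 differed most, coding bases 500 to 559 counted from the start codon in both genes, is shown because it is where a read separates them best. The 10 differing bases are in capitals, and the sequences were read from the GENCODE transcripts of this build.
Chil3: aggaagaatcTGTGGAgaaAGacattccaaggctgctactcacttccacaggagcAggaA
Chil4: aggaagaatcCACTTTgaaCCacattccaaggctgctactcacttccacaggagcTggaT

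Upstream of their listed starts, each pair shared 1 STAT-type motif. In the 250 bases before the start, Retnla and Retnlg each held 1 match to TTCNNNNGAA, the spacing that STAT6 prefers, and Chil3 and Chil4 each held 1 match to TTCNNNGAA, the spacing of other STAT proteins. The Chil1 window held neither, but it ran from 136078731 to 136078980, and the GENCODE gene record of Chil1 starts at 136078753. Most of that window thus lay inside the gene record. The end of the Chil1 window nearest the listed start had no match among RefSeq promoter sequences, while each of the other genes had 1. The absence therefore holds for this window only, and sequence before the start of the record was not searched further. Both motifs are palindromes, so a match on 1 strand is also a match on the other. Among 25015 windows of the same length and position over the genes of the table, 5.54% held the first motif and 6.78% the second. The 60 bases around each match are shown because they let the copies be compared, with the match in capitals, read 5′ to 3′ on the gene's strand from the mm9 genome.
Retnla, chr16:48842552-48842611, plus strand: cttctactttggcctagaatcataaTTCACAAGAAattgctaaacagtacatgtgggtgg
Retnlg, chr16:48872624-48872683, plus strand: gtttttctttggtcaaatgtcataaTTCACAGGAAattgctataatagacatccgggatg
Chil3, chr3:105970620-105970679, minus strand: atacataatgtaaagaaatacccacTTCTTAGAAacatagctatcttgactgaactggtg
Chil4, chr3:106022563-106022622, minus strand: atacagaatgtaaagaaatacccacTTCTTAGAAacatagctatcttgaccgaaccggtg

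Counted from the listed start, the match began at position -145 in Retnla, -72 in Retnlg, -172 in Chil3 and -200 in Chil4. Across the whole windows, 201 of 221 aligned bases were identical between Chil3 and Chil4 (91.0%) and 135 of 176 between Retnla and Retnlg (76.7%). A C/EBP-type motif, TTNNGNAA on either strand, was present in all 5 windows and in 34.5% of all windows. The core GAGGAA bound by PU.1 was present on either strand in the Retnla window, where it overlapped a C/EBP-type match, and in 22.8% of all windows. TATAAA on either strand was present in the Chil4 and Retnla windows and in 12.1% of all windows. A match is a description of the letters and not evidence of binding.

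**Figure D1:**
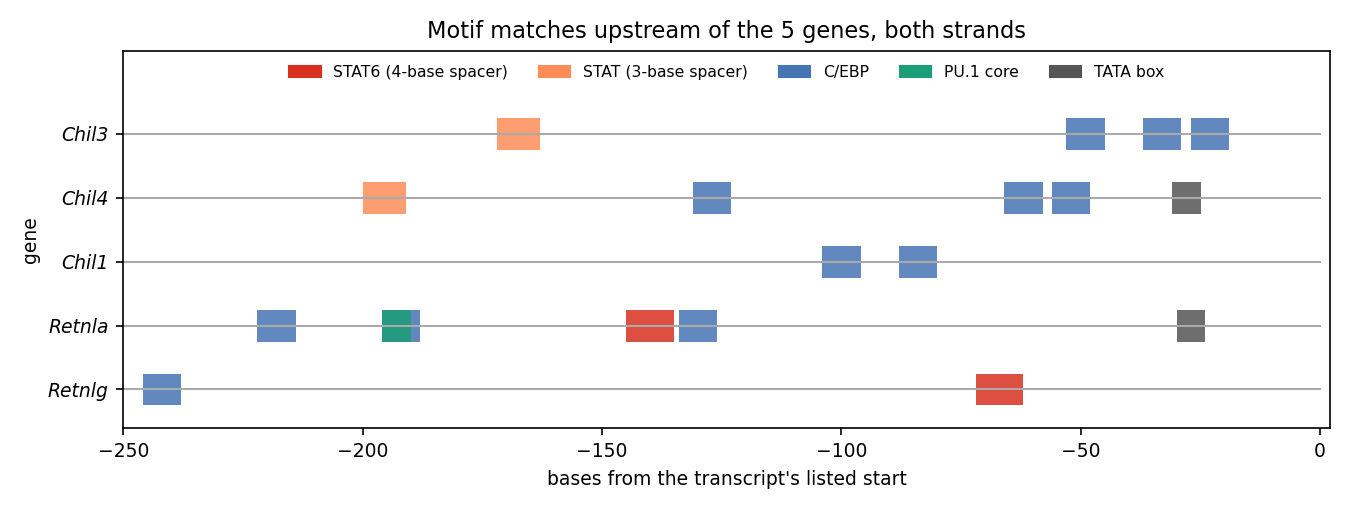
Positions of motif matches in the 250 bases upstream of the listed transcript start of each gene, with the distance from the start in bases on the horizontal axis and 1 line per gene. Coloured boxes are matches on either strand. A STAT-type box is present in 4 of the 5 genes and absent in the Chil1 window, most of which lies inside the GENCODE gene record of Chil1.

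The targeted gene was examined first. Kdm1a had a mean deposited log2 value of 11.18 ± 0.044 (SD, n = 4) in shGFP, 11.10 ± 0.028 in shGFP IL4, 10.30 ± 0.053 in shKDM1A and 10.32 ± 0.029 in shKDM1A IL4 cells. The shKDM1A libraries, at 10.23 to 10.36, all lay below the shGFP libraries, at 11.07 to 11.23. With limma across all 12905 genes tested (those whose log2 value reached 1 in 4 or more libraries) and Benjamini-Hochberg adjustment, Kdm1a fell by 0.88 on the log2 scale without IL4 (SE 0.028, adjusted p = 5.62e-13) and by 0.79 with IL4 (SE 0.028, adjusted p = 2.2e-12), which left 54.2% and 58.0% of the control level. With IL4 Kdm1a itself fell by 0.079 in shGFP cells (adjusted p = 0.0481), a call that was lost in 12 of 16 fits that left out 1 library each, where the change was -0.0976 to -0.0640.

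In the RAW libraries the 5 genes took only 2 kinds of value. Chil3, the lectin used as a marker of IL4-activated macrophages, was listed at 0 in all 16 libraries. Retnla, the resistin-like marker of the same state, was listed at 0 in all 16. Retnlg, its neighbour, was also listed at 0 in all 16. The 3 genes therefore carried no difference between any groups. They were among 8488 genes, 33.8% of the table, that were listed at 0 in all 16, and no gene was listed at 0 in some libraries and not in others. What a listed 0 stands for is not stated in the sources used here, and the values are on a log scale on which other genes lie below 0, so no fold change was formed for them.

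Chil4, the close copy of Chil3, lay at log2 values of -2.26635 to -2.26615 in shGFP, -2.26641 to -2.26618 in shKDM1A and -2.26631 to -2.26605 in shKDM1A IL4 cells. In shGFP IL4 cells it lay at -2.26475 in replicate 1 and at -2.26624 to -2.26613 in the other 3 libraries. Chil4 was thus high in 1 library only, and the 3 others of that group overlapped the remaining groups. Chil1, the counterpart of YKL-40, lay at -2.26641 to -2.26615 in shGFP, -2.26648 to -2.26620 in shKDM1A and -2.26635 to -2.26603 in shKDM1A IL4 cells. In shGFP IL4 cells it lay at -2.26420 in replicate 4 and at -2.26636 to -2.26625 in the other 3 libraries. Here too 1 library stood apart and the group did not, and the whole range over 16 libraries was 0.00166 log2 units for Chil4 and 0.00227 for Chil1.

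All 5 genes were near the detection floor, defined as fewer than 4 of the 16 libraries reaching a log2 value of 1. In fact no library reached it for any of them. As a result 0 of the 5 could be tested for an effect of IL4 or of KDM1A depletion, and no gene could be ranked by likeness to them. These values therefore neither show such an effect nor set a limit on it, and the libraries held 17554721 to 27782568 tags each. With a limit of 0 only Chil4 and Chil1 were near the floor, since a listed 0 then reaches the limit. In bulk RNA, fewer cells with a transcript and less transcript per cell cannot be told apart.

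**Figure D2:**
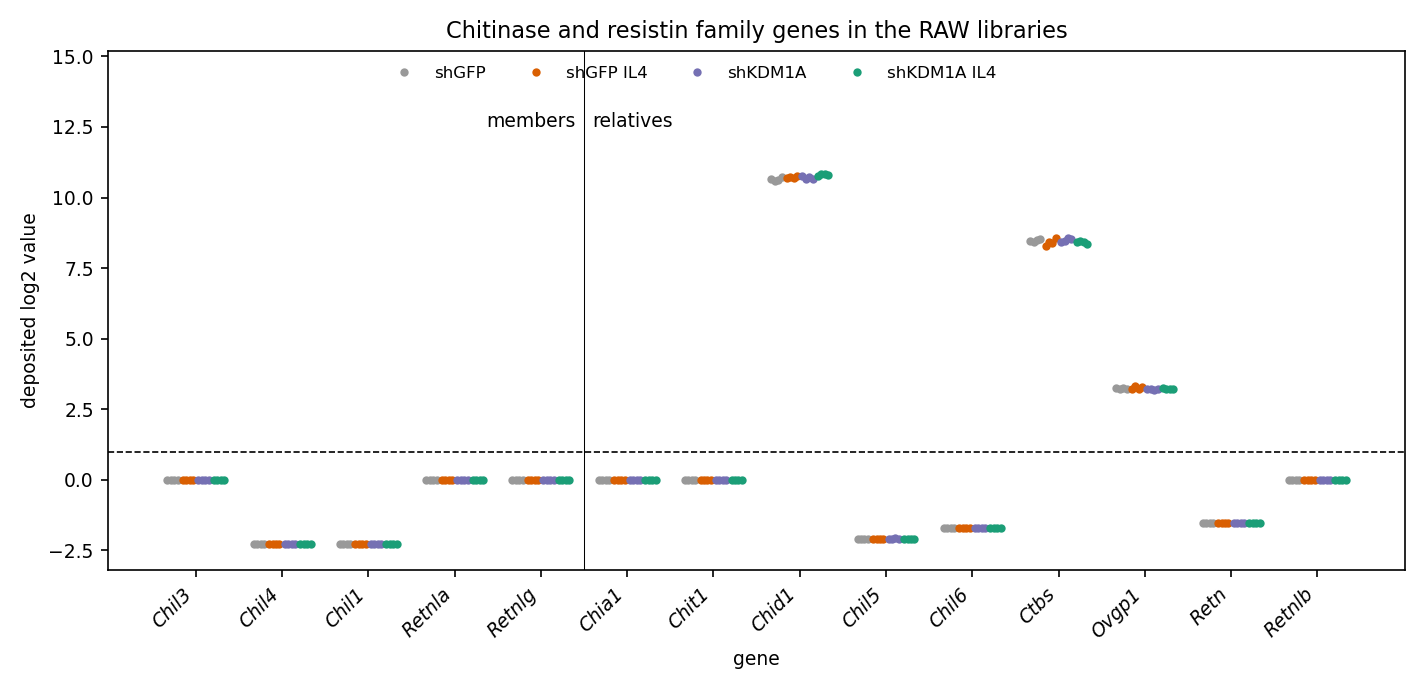
Deposited log2 value of the 5 genes and 9 relatives (horizontal axis) in each of the 16 RAW libraries (points, coloured by group). The dashed line marks the detection limit of 1, and the 5 genes lie below it in every library while Chid1, Ctbs and Ovgp1 lie above it.

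The lowest values of the table fell into even steps, and these place Chil4 and Chil1. The lowest level, at a mean log2 value of -2.27, held 921 genes including both. The next levels held 498, 319, 230, 185 and 145 genes and followed at intervals of 0.180 log2 units each. Each of the 921 genes of the lowest level had exactly 1 library that stood out, by at least 0.00146 log2 units, while the second highest library of any of these genes lay at most 4.56e-05 above the median of the level. On the second level 1 or 2 libraries stood out per gene. Within a library, every gene of the lowest level that stood out there had the same value.

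Chil4 thus shared its value of -2.26475 in replicate 1 of shGFP IL4 with all 81 genes that stood out in that library. Chil1 shared its value of -2.26420 in replicate 4 of that group with all 74 genes that stood out there. The library that stood out belonged to shGFP IL4 for 302 of the 921 genes (32.8%), to shKDM1A for 246 (26.7%), to shGFP for 189 (20.5%) and to shKDM1A IL4 for 184 (20.0%). Both genes having their high library in shGFP IL4 therefore placed them in the commonest class of this level, and with 1 library each there was no replicate of the value.

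**Figure D3:**
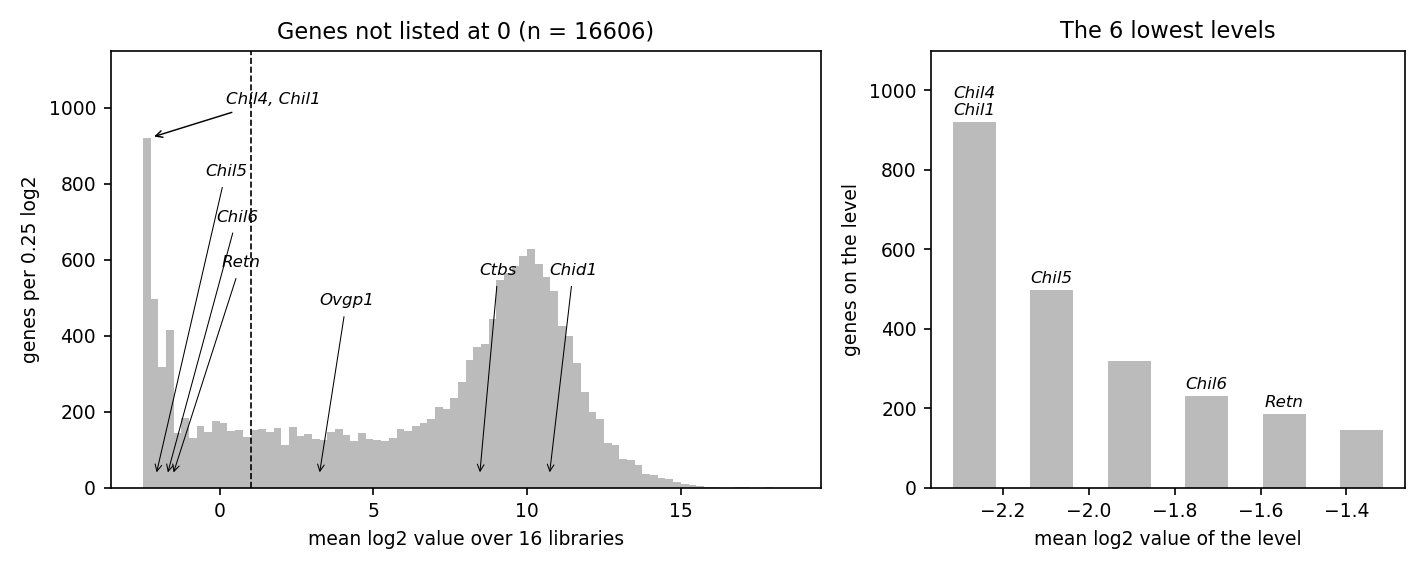
Left, number of genes per 0.25 log2 by mean deposited log2 value over the 16 RAW libraries, for the genes not listed at 0, with the family genes named and the limit of 1 dashed. Right, number of genes on each of the 6 lowest levels, where Chil4 and Chil1 share the lowest level with 921 genes in all and Chil5, Chil6 and Retn lie 1, 3 and 4 steps higher.

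**Figure D4:**
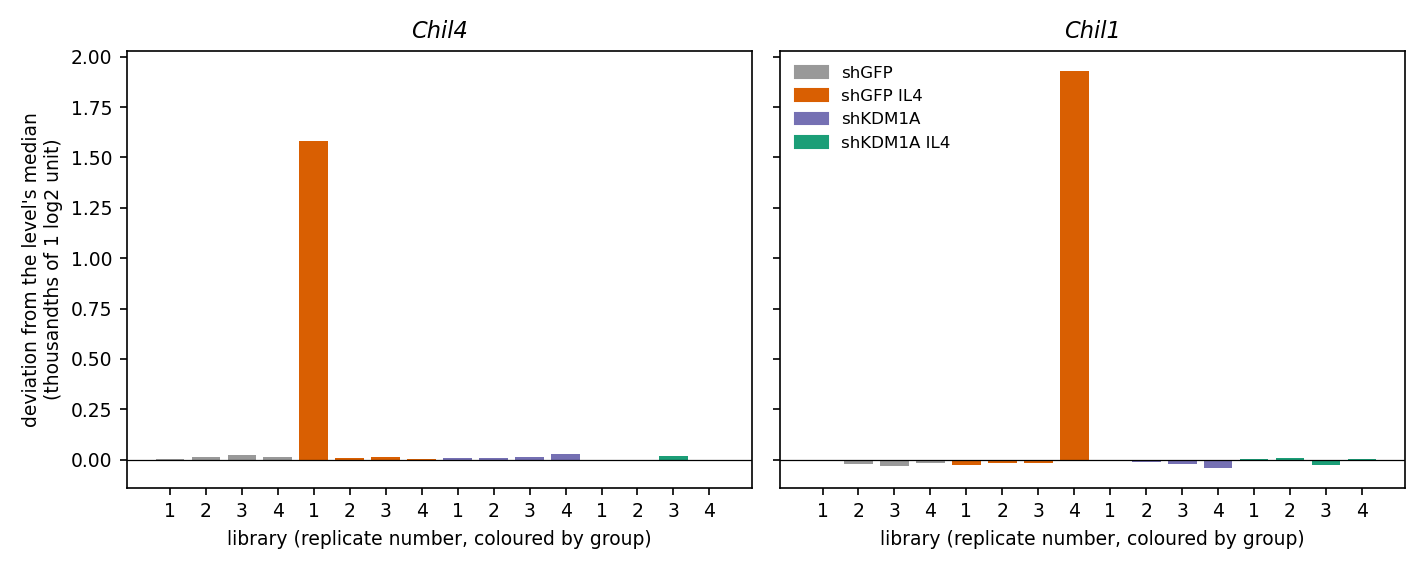
Deviation of Chil4 and Chil1 from the median of the lowest level in each RAW library (bars, in thousandths of 1 log2 unit, coloured by group, with replicate numbers on the horizontal axis). In each gene 1 library of shGFP IL4 stands at 1.58 (Chil4) or 1.93 (Chil1) thousandths, and the other 15 lie near 0.

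All 5 genes were also listed in the BMDM table, although no level can be given there. Of all 25094 genes listed for RAW cells 65.7% were listed in BMDMs. Of the 8488 genes at 0 in RAW cells, 1329 were listed in BMDMs (15.7%), of the 921 on the lowest level 362 were (39.3%), and of the 12905 tested genes 12794 were (99.1%). The rule by which genes entered the BMDM table is not given in the sources used here.

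Most relatives of the 5 genes did not reach the limit either, and 3 of 9 were tested. Chid1, a chitinase-domain protein of the secretory and lysosomal pathway, had a mean log2 value of 10.72 over the 16 libraries. Ctbs, the lysosomal chitobiase that trims glycoprotein sugars, had 8.45, and Ovgp1, an oviduct glycoprotein with a chitinase-like domain, had 3.23. Chia1 and Chit1, the active chitinases, and Retnlb, the resistin-like gene of gut epithelium, were listed at 0. Chil5, Chil6 and Retn, which encodes resistin, lay on low levels at -2.09, -1.73 and -1.54.

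Changes of the 3 tested relatives were small. With IL4 in shGFP cells 0 of 3 passed limma's test (1 at an unadjusted p under 0.05), against 26.9% of all genes tested. In shKDM1A cells 1 of 3 passed, against 27.1% of all genes. This was Chid1, which rose from 10.70 ± 0.050 (SD, n = 4) to 10.80 ± 0.021, by 0.10 on the log2 scale (SE 0.030, adjusted p = 0.0169). The call was lost without replicate 2 (0.0869) or replicate 4 (0.0925) of shKDM1A. Between shKDM1A and shGFP cells, 0 of 3 passed limma's test without IL4 (also 0 at an unadjusted p under 0.05, against 38.2% of all genes called) and 1 of 3 with IL4 (40.7% of all genes). Chid1 was higher there by 0.082 (SE 0.030, adjusted p = 0.0402), and the call was lost with quantile normalization (0.071, adjusted p = 0.0825 by limma) and in 6 of 16 fits that left out 1 library each (0.0701 to 0.0950 over the 16).

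Transcripts of the receptors and partners listed for the family were found in RAW cells. All 9 genes of that list were tested, with mean log2 values from 4.65 for Il13ra2, described as a receptor of Chil1, to 14.72 for Cap1, described as a receptor of human resistin. With IL4, 5 of 9 rose and 2 fell in shGFP cells, where 13.1% of all genes tested rose and 13.7% fell. In shKDM1A cells 4 rose and 1 fell, against 13.6% and 13.5% of all genes. The median change was 0.10 in each, against 0.00 over all genes. Tlr4, the endotoxin receptor also described to bind resistin, rose by 0.23 in shGFP cells (SE 0.046, adjusted p = 0.00127) and by 0.29 in shKDM1A cells (SE 0.046, adjusted p = 0.000174). Il13ra2 rose by 0.15 in shGFP and by 0.17 in shKDM1A cells (SE 0.025 each), and Btk, a kinase described to bind RELMα, by 0.15 (SE 0.024) and, in shKDM1A cells, by 0.22 (SE 0.024). Cd44, a hyaluronan receptor that also binds Chil1, rose by 0.22 in shKDM1A cells (SE 0.022, adjusted p = 1.51e-06) and by 0.098 in shGFP cells (adjusted p = 0.00333).

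KDM1A depletion raised 5 of these 9 genes and lowered 2 without IL4, when 19.7% of all genes tested were higher and 18.4% lower. With IL4 it raised 5 and lowered 1, against 20.9% and 19.8% of all genes. Sdc1, a heparan sulfate proteoglycan described as a partner of YKL-40, had a log2 value of 9.05 ± 0.049 in shGFP and 9.45 ± 0.046 in shKDM1A cells (SD, n = 4), a rise of 0.40 (SE 0.028, adjusted p = 8.65e-09). With IL4 the difference was 0.58 (SE 0.028, adjusted p = 9.92e-11). Lgals3, or galectin-3, was higher by 0.22 without IL4 and by 0.28 with it (SE 0.020 each). Cap1 was higher by 0.19 without IL4 and by 0.25 with it (SE 0.019 each), and Cd44 by 0.16 and 0.28 (SE 0.022 each). The IL4 effect itself differed between the lines for 2 of 9 genes, against 6.13% of all genes, by 0.18 for Sdc1 (SE 0.040, adjusted p = 0.0178) and by 0.12 for Cd44 (SE 0.031, adjusted p = 0.0362). The call for Cd44 was lost in 9 of 16 fits that left out 1 library each (0.10 to 0.13 over the 16).

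The IL4 receptor and its path to STAT6 were present, and part of it responded. Of 11 genes, 10 were tested, and Irs2, an adaptor of the receptor, was listed at 0. In shGFP cells 5 rose and 2 fell with IL4 (13.1% and 13.7% of all genes), and in shKDM1A cells 3 rose and 2 fell (13.6% and 13.5%). Socs1, a feedback inhibitor of JAK kinases, rose from 5.80 ± 0.042 (SD, n = 4) to 6.51 ± 0.090 in shGFP cells, by 0.70 (SE 0.053, adjusted p = 3.03e-08). In shKDM1A cells it rose by 0.37 (SE 0.053, adjusted p = 5.42e-05), and the difference of -0.33 passed the test (SE 0.074, adjusted p = 0.0149). Cish, another inhibitor of the SOCS family, rose by 0.38 in shGFP (SE 0.020) and by 0.19 in shKDM1A cells (SE 0.020), a difference of -0.19 (SE 0.028, adjusted p = 0.000781). Il13ra1, the chain that pairs with Il4ra in the type II receptor, fell by 0.20 with IL4 in shGFP cells (SE 0.039, adjusted p = 0.000816), and this effect differed between the lines by 0.26 (SE 0.055, adjusted p = 0.0102). Tyk2, a kinase of that receptor, fell by 0.17 with IL4 in shKDM1A cells (SE 0.029). Its change in shGFP cells was -0.03, and the difference between the lines did not pass the test (adjusted p = 0.0579).

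Without IL4, KDM1A depletion raised 4 of these 10 genes and lowered 2 (19.7% and 18.4% of all genes), and with IL4 it raised 2 and lowered 5 (20.9% and 19.8%). Il13ra1 was lower by 0.58 without IL4 (SE 0.039, adjusted p = 3.74e-09) and by 0.32 with it (SE 0.039), as values of -0.58 and -0.32 on the log2 scale. Il2rg, the common gamma chain of the type I receptor, was higher by 0.47 and 0.46 (SE 0.030 each). Jak3, the kinase bound to that chain, was higher by 0.28 and 0.19 (SE 0.032 each).

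Transcription factors known to act on Chil3 or Retnla were all detected. Of 9, 5 rose with IL4 in shGFP cells, where 13.1% of all genes rose, and 4 rose in shKDM1A cells, where 13.6% did. By limma 0 fell in either line, also at an unadjusted p under 0.05, against 13.7% and 13.5% of all genes called lower. Egr2, a factor of the late IL4 response, rose from 6.98 ± 0.025 (SD, n = 4) to 7.89 ± 0.102 in shGFP cells, by 0.91 (SE 0.048, adjusted p = 3.94e-10), and by 0.86 in shKDM1A cells (SE 0.048, adjusted p = 8.8e-10). Myc rose by 0.54 and 0.68 (SE 0.046 each), and Irf4, which is needed for alternative activation, by 0.45 and 0.39 (SE 0.045 each). The IL4 effect differed between the lines for 0 of 9 by limma (2 at an unadjusted p under 0.05), against 791 of 12905 genes, or 6.13%. KDM1A depletion raised 2 and lowered 2 of the 9 without IL4 (19.7% and 18.4% of all genes), and raised 4 and lowered 3 with it (20.9% and 19.8%). Klf4, which cooperates with STAT6, was higher by 0.40 without IL4 (SE 0.034) and by 0.32 with IL4 (SE 0.034). Pparg, the nuclear receptor of lipid-handling macrophages, changed by -0.31 and -0.30 (SE 0.031 each), and Irf4 by -0.24 and -0.31 (SE 0.045 each).

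Most of the tested genes among other markers of alternative activation rose with IL4 in RAW cells, while a part of the list stayed below the limit like the 5 genes. Of 19 such genes, 18 were listed and 9 were tested. The 9 include Ptgs1, Mrc1, Mgl2, Clec7a and Flt1, named as IL4 targets by the study itself, so the counts are not independent of these data. Ear2, Cdh1 and Fn1 were listed at 0, and Ccl17, Ccl22, Ccl24, Cd209a, Alox15 and Socs2 lay below the limit. Among them Cd209a shared the lowest level with Chil4 and Chil1. With IL4, 8 of 9 rose in shGFP cells, against 13.1% of all genes, with a median change of 0.56. In shKDM1A cells 7 rose, against 13.6% of all genes, with a median of 0.50. By limma 0 of 9 fell in either line, also at an unadjusted p under 0.05, against 13.7% and 13.5% of all genes called lower.

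Ptgs1, or cyclooxygenase-1, rose from 7.90 ± 0.033 (SD, n = 4) to 9.68 ± 0.055 in shGFP cells, a 3.42-fold rise (log2 1.77, SE 0.038, adjusted p = 7.58e-15). In shKDM1A cells it rose 2.12-fold (log2 1.08, SE 0.038), from 6.69 ± 0.086 to 7.77 ± 0.035. Mrc1, the mannose receptor, rose from 5.51 ± 0.025 to 6.83 ± 0.062 in shGFP cells (log2 1.32, SE 0.032), and by 0.50 in shKDM1A cells (SE 0.032). Clec7a, the beta-glucan receptor dectin-1, rose by 0.89 in shGFP (SE 0.047) and by 1.12 in shKDM1A cells (SE 0.047), and Flt1, a VEGF receptor, by 0.75 in each line (SE 0.050). In no library treated with IL4 did Ptgs1 or Mrc1 overlap the untreated libraries of the same line.

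The effect of IL4 differed between the lines for 2 of 9 of these markers, against 6.13% of all genes. It was smaller in shKDM1A cells for Mrc1, by -0.82 (SE 0.046, adjusted p = 3.57e-08), and for Ptgs1, by -0.69 (SE 0.053, adjusted p = 1.22e-06). Without IL4, KDM1A depletion lowered 4 of 9 (18.4% of all genes) and by limma raised 0 (1 at an unadjusted p under 0.05, against 19.7% of all genes called). With IL4 it lowered 5 and raised 1 (19.8% and 20.9%). Without IL4, Ptgs1 changed by -1.21 (SE 0.038), Flt1 by -0.54 (SE 0.050) and Tgm2, a transglutaminase, by -0.22 (SE 0.035). With IL4, Ptgs1 changed by -1.91 (SE 0.038), Mrc1 by -0.83 (SE 0.032), Flt1 by -0.54 (SE 0.050) and Tgm2 by -0.26 (SE 0.035). Without IL4 the value for Mrc1 was -0.02 (SE 0.032, adjusted p = 0.735). How the deposited transformation treats changes of low genes was not tested. Cish, at 3.96 ± 0.0073 (SD, n = 4) in shGFP cells, and Il13ra2 were the lowest of the genes named with changes.

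**Figure D5:**
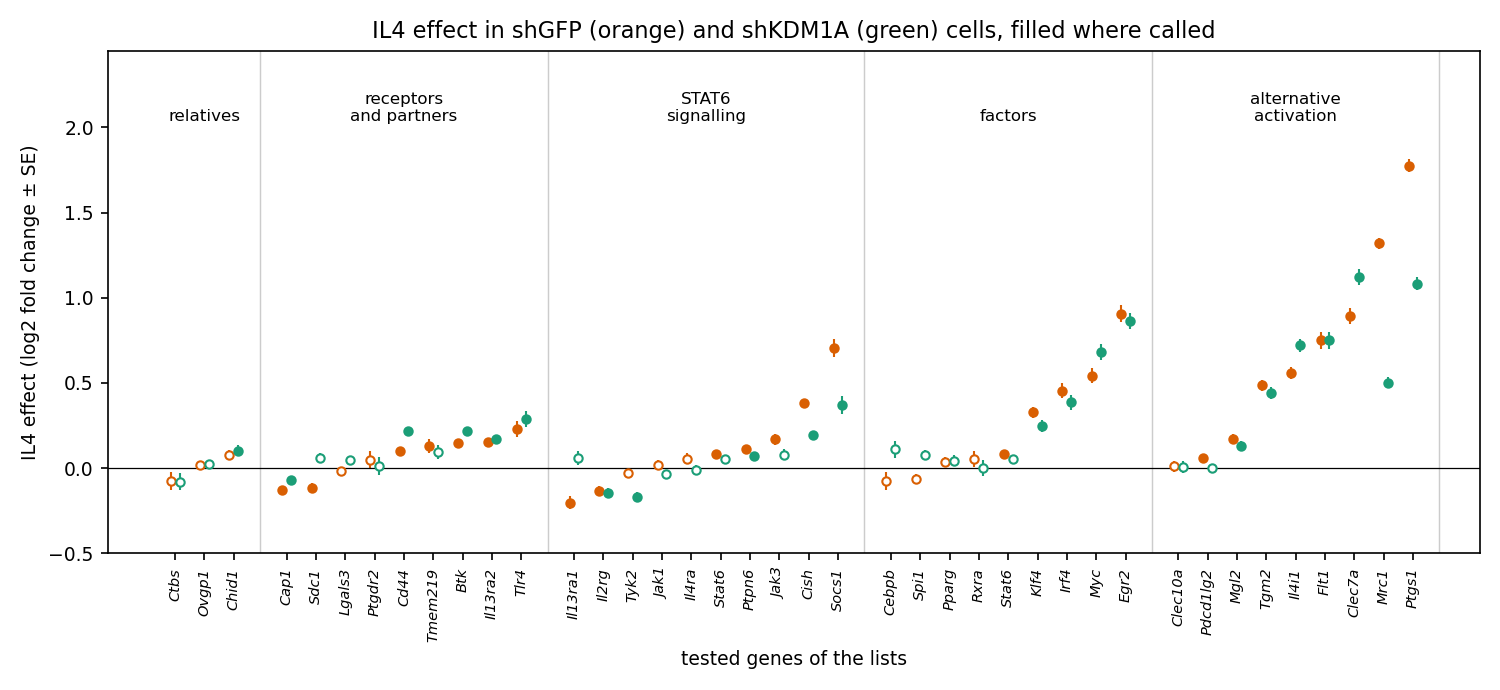
IL4 effect as log2 fold change with its SE (vertical axis) for every tested gene of the 5 gene lists (horizontal axis), in shGFP (orange) and shKDM1A (green) cells, with filled points where the adjusted p was under 0.05. Ptgs1 and Mrc1 stand highest in shGFP cells, at 1.77 and 1.32, and none of the 5 chitinase-like and resistin-like genes could be placed in it.

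Markers of the cell type matched the label of a macrophage line. Of 10 macrophage markers 8 were tested, at mean log2 values from 9.78 (Fcgr1) to 16.87 (Lyz2), while Cd163 was listed at 0 and Mertk lay at -0.99. Neutrophil markers were mostly low or listed at 0, with 2 of 13 tested (S100a8 at 1.23 and Csf3r at 6.15), 4 listed at 0 (S100a9, Ly6g, Ltf and Ngp) and 7 below the limit. None of the 4 eosinophil, 4 T and B cell and 4 epithelial and adipocyte markers reached the limit.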

How the data were processed

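RNA was sequenced from RAW264.7 cells and BMDMs, and the authors aligned the reads to mm9, using HISAT2, Bowtie2 and HOMER per the labels. Per the file headers, HOMER counted tags over exons on both strands, 1 transcript per gene, and DESeq2 was run on the tags. The deposited RAW values have decimal commas, and their transformation is not named in the sources used here. They were read as log2 values from their range. Counts per library were not analysed here, so no count model was run. Columns of the authors' own comparisons, 12 in the BMDM and 9 in the RAW table (log2 fold change, p-value, adjusted p-value), were not used.

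Groups came from sample titles. The study's methods describe its replicates as biological, but no label says that these libraries came from separate cultures, so p-values measure only the spread between them, which may be technical. No 2 replicates held an equal value for any tested gene. Genes whose log2 value reached 1 in 4 or more libraries (12905) were tested with limma 3.58.1 in R 4.3.3, with 1 mean per group over 16 libraries and Benjamini-Hochberg adjustment at 0.05. The fit was tested on simulated data. Alternatives were a filter eased to any value above 0, only the 2 groups compared, a replicate block and median centring. Quantile normalization, a variance trend and each library left out were further alternatives. A level of low genes was a run of mean values with no gap over 0.05. On the lowest level a library was said to stand out where its deviation from the level's median was over 10 times the next highest. For the counts of libraries per level, the bound was 1/10 of the smallest of those top deviations. Sequences came from the mm9 genome and GENCODE transcripts, aligned with Biopython 1.88. The members and gene lists were chosen with earlier results of these data known. Named with values were the 5 genes, Kdm1a and, in each list, the called genes with the 3 largest changes per comparison. The cell type markers were given by level and count. One gene of the list of alternative activation markers is not reported here.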

Additional observations from a re-analysis of the deposited data

Results flagged for a closer look

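In 108 groups of 4 libraries examined, 6 had a value far from the other 3 by Dixon's criterion, and chance alone flags about 1 in 20 groups. That rate does not apply to 2 of the 6, which were members, since all 921 genes of their level had 1 library that stood out: Chil4 at -2.26475 in replicate 1 of shGFP IL4 (others -2.26624 to -2.26613) and Chil1 at -2.2642 in replicate 4 of that group (others -2.26636 to -2.26625). The other four were Jak3 at 8.39 in replicate 3, Klf4 at 9.23 in replicate 1 and Pparg at 5.62 in replicate 2 of shGFP IL4, and Ptgs1 at 7.72 in replicate 4 of shKDM1A IL4.

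The IL4 effect differed between the lines, by limma's test of the difference (shKDM1A minus shGFP, log2), for 7 named genes. It was smaller in shKDM1A cells for Mrc1 (-0.82), Ptgs1 (-0.69), Socs1 (-0.33) and Cish (-0.19). It was higher for Il13ra1 (0.26), Sdc1 (0.18) and Cd44 (0.12).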

How the results depend on the processing

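All 5 genes stayed near the floor with a limit of 2, which had to follow since none reached 1. They also stayed near it with median centring and with quantile normalization. The latter left values below those of all tested genes unchanged, so it could not test this. With a limit of 0 only 2 stayed near the floor (Chil4 and Chil1), because the 3 genes listed at 0 reach that limit by construction. With the filter eased to a value above 0 in any library, 13525 genes were tested. None of the 5 was among them by construction, since none has a value above 0. The numbers of genes called stayed within 1.5 times the main counts in all alternatives. For IL4 they were 2975 to 3619 (main 3466) in shGFP cells and 3018 to 3585 (3497) in shKDM1A cells. For KDM1A depletion they were 4419 to 5154 (4927) without and 4697 to 5429 (5255) with IL4. For the difference in IL4 effect they were 530 to 1104 (791). The split by direction moved more. Quantile normalization turned it for KDM1A depletion without IL4, from 2548 higher and 2379 lower to 2225 and 2929. With IL4 it went from 2694 and 2561 to 2384 and 2917. Median centring moved the IL4 effect in shKDM1A cells from 1752 higher and 1745 lower to 2025 and 1560. The fall of Kdm1a with IL4 in shGFP cells lost its call with median centring (-0.0791, adjusted p = 0.0570), quantile normalization (-0.0778, 0.0613), a variance trend (-0.0794, 0.0530) and in 12 of 16 fits with 1 library left out (-0.0976 to -0.0640 over all). The small IL4 effect on Kdm1a in shKDM1A cells, which passed no test, turned to -0.0038 without replicate 3 of shKDM1A (range -0.0038 to 0.0386). With 1 library left out, Kdm1a changed by -0.90 to -0.86 and -0.80 to -0.77 on KDM1A depletion without and with IL4, and by 0.0756 to 0.118 in the difference in IL4 effect. Chid1 in shKDM1A cells lost its IL4 call without replicate 2 or 4 of shKDM1A (0.0869 and 0.0925). Of 57 named gene results, 54 kept their call in all alternatives and 3, all given here, did not. Chid1 in IL4-treated shKDM1A against shGFP cells lost it in 8 alternatives (0.0701 to 0.0950 over all), among them the replicate block (0.08), quantile normalization (0.07) and, left out singly, replicates 1, 2 and 3 of shGFP IL4 and 2, 3 and 4 of shKDM1A IL4. Cd44 in the difference lost it in 10 (0.10 to 0.13 over all), among them the replicate block (0.12, adjusted p = 0.0527) and replicates 2 and 3 of shGFP, 2 and 3 of shGFP IL4, 1, 3 and 4 of shKDM1A and 1 and 4 of shKDM1A IL4. Same-numbered libraries of different groups correlated above 0.1 in 3 of 24 pairs (-0.343 to 0.273, median 0.0449), so the numbers were not taken to pair the libraries, and the block left 3430, 3459, 4882, 5212 and 732 genes called in the 5 comparisons.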
